A study of Mus musculus with 11 samples.

Results

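The genes described here encode the nuclear subunits of the mitochondrial respiratory chain and of ATP synthase. They were picked by symbol alone, as genes that begin with Ndufa, Ndufb, Ndufc, Ndufs, Ndufv, Uqcr, Cox4 to Cox8 or Atp5 together with Sdha to Sdhd, and 79 of the 22180 genes with a probe set of their own met that rule. They comprise 34 genes of complex I, 4 of complex II, 7 of complex III, 17 of complex IV and 17 of ATP synthase. The assembly factors named Ndufaf (8 genes) and 2 pseudogenes were left out. Where a gene had several probe sets, the brightest over all arrays was used.

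RNA came from hematopoietic stem cells (HSCs), the cells that sustain blood formation, sorted by flow cytometry from mice and hybridised to 11 Affymetrix arrays. The mice had received PBS (3 arrays), all-trans retinoic acid (ATRA, a vitamin A metabolite, 3 arrays), polyinosinic:polycytidylic acid (pIC, a double-stranded RNA mimic that induces interferon, 2 arrays), or ATRA and then pIC (ATRA+pIC, 3 arrays). The design asks how stem cell expression differs when an interferon inducer is given, and how it differs when ATRA is given before it. The sources used here do not give strain, genotype, age, dose, interval, the sorting gate or whether each array stands for separate mice. The p-values therefore measure only the spread between these arrays, which may in part be technical. In bulk RNA of sorted cells, a change in the mix of cells and a change in RNA per cell cannot be told apart.

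The respiratory chain sits in the inner mitochondrial membrane. Complex I takes electrons from NADH and complex II takes them from succinate, both hand them to ubiquinone, complex III passes them to cytochrome c, and complex IV gives them to oxygen. The proton gradient that complexes I, III and IV build drives ATP synthase. Most subunits are encoded in the nucleus, a small core is encoded by mitochondrial DNA, and quiescent HSCs are known for low reliance on this pathway at rest.

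Values are log2 intensities, so a difference of 1 is a doubling. Changes are given with the standard error (SE) of a limma model of all 11 arrays and with p-values adjusted by the Benjamini-Hochberg method over 22180 genes, and a gene rose or fell where the adjusted p was under 0.05. The median intensity per array ran from 6.19 to 6.28 over all probe sets. In PBS, 70 of the 79 respiratory genes had a mean above 6.64, the highest array median over genes. All 11 measured HSC markers were above it too, against 1 of 13 T and NK cell, 1 of 11 neutrophil and 1 of 7 B cell markers. Erythroid markers (8 of 9) and megakaryocyte markers (6 of 7) were also above it.

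One array stood apart from its group. On the first principal component over all genes, which held 56% of the variance, ATRA+pIC replicate 2 scored -4.53, whereas the other ATRA+pIC arrays scored 35.8 and 23.3, the pIC arrays 35.0 and 37.8, and the PBS and ATRA arrays -24.5 to -15.1. Cell type markers moved with pIC as well. Between pIC and PBS, 6 of 11 HSC markers fell (median change of the list -0.61), 5 of 9 erythroid markers rose (median 1.02), 2 of 13 T and NK markers rose (median 0.90) and 2 of 10 monocyte and macrophage markers rose (median -0.02). Among 7 megakaryocyte and platelet markers, 3 rose (Itga2b, Treml1 and Itgb3) and Pf4 fell, with a median of -0.12, while no neutrophil (0 of 11) or B cell (0 of 7) marker passed the test. Mean erythroid marker intensity was 8.38 to 8.63 on PBS arrays, 8.16 to 8.24 on ATRA, 9.50 to 9.61 on pIC and 8.04 to 9.24 on ATRA+pIC, the lowest of these on replicate 2. For T and NK markers the same means were 5.76 to 6.06, 6.01 to 6.3, 6.69 to 7.18 and 5.79 to 7.83. For HSC markers they were 9.96 to 10.04, 9.99 to 10.06, 9.30 to 9.34 and 9.26 to 9.83. The part of these markers in the respiratory results was not tested.

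The test was met in both comparisons that add pIC by 6 genes, namely Sdhb, Sdhd, Cox5a, Uqcrq and Ndufb7, which rose, and Cox7c, which fell. How many of all genes met it in both was not counted. The stretch upstream of the annotated start is shown for those of the 6 genes whose window lies outside the gene's own annotated span. It is also shown for Uqcrh, the other gene that fell after pIC alone. The sequences are RefSeq's on build GRCm38.p6, run 5′ to 3′ on the gene's strand up to the base before the start, and stop at a neighbouring gene where there is one. Capitals mark exact matches on either strand to GCGCA, any base and GCGC (the NRF1 motif), CCGGAAG (the ETS motif bound by GABP), AAGATGGC (YY1), GGGCGG (Sp1), TCAAGGTCA (ERR), CACGTG (E box) or TGACGTCA (CRE). Sdhb is at chr4:140961021-140961270 on the plus strand, Sdhd at chr9:50603850-50603900 on the minus strand up to its neighbour Timm8b, and Ndufb7 at chr8:83566508-83566757 on the plus strand. Cox7c is at chr13:86046796-86047045 and Uqcrh at chr4:116075071-116075268 up to its neighbour Lrrc41, both on the minus strand.
Sdhb: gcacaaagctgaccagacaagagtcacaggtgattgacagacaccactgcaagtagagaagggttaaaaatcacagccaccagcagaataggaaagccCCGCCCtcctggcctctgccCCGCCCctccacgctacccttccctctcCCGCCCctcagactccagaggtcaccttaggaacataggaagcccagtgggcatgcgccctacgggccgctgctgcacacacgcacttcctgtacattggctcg
Sdhd: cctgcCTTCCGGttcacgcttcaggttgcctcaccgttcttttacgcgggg
Ndufb7: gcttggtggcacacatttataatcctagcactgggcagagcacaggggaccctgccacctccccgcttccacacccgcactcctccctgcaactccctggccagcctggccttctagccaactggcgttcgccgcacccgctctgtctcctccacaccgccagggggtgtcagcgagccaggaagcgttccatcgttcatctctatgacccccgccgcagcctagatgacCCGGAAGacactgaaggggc
Cox7c: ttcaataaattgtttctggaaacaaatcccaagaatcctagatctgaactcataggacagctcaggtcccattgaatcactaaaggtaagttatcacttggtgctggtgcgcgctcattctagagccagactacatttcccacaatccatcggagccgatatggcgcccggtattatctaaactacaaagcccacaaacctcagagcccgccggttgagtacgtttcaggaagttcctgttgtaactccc
Uqcrh: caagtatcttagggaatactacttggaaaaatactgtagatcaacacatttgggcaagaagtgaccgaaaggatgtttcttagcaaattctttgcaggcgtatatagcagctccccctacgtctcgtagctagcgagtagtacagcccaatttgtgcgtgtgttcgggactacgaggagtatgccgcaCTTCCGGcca
The Sdhb stretch holds 3 Sp1 matches, and those of Sdhd, Ndufb7 and Uqcrh hold 1 ETS match each, so the motif occurs upstream of genes that rose and of one that fell. The counts that follow use all 250 bases before an annotated start, also where these run past a neighbour. Sdhd is counted with an NRF1 match that lies beyond the bases shown. Windows inside the gene's own annotated span are counted too, such as that of Cox5a, which holds an Sp1 match. No listed motif is in the Cox7c window. Over the 65 respiratory genes with an entry, the NRF1 motif was in such a window of 11 (16.9%, against 5.84% of 17491 protein-coding genes). The ETS motif was in that of 12 (18.5%, against 10.2%). Sp1 was in 25 (38.5%, against 45.8%), the E box in 6 (9.23%, against 7.61%), CRE in 3 (4.62%, against 2.2%), and YY1 and ERR in 1 each (1.54%, against 1.77% and 0.36%). A match is a run of letters and not a measured site. Among the 13 genes with an entry that rose after pIC, 4 held the NRF1, 5 the ETS and 6 the Sp1 motif. The motifs were not counted over all genes that rose, so these 13 cannot show whether a motif goes with a rise.

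With pIC alone, the respiratory genes were mostly higher than with PBS. The test was passed by 14 genes that rose and 2 that fell (Uqcrh and Cox7c), where 8.94% of all genes rose and 5.75% fell (14.7% in either direction). The difference was positive for 65 of the 79 genes, with a median of 0.17 on the log2 scale and a range from -0.38 to 0.60, whereas 50.3% of all genes had a positive difference and their median was 0.00. Both pIC arrays lay above all 3 PBS arrays for 47 genes (59.5%, against 23.4% of all genes) and below them for 5 (6.33%, against 19.6%). Bright genes were called more often, and 58 of the 79 genes lay in the brightest 25% of all genes. Of those 58, 13 rose (22.4%), near the 21.7% of the 5545 genes of that brightness, so the share called is not a result about the respiratory genes. Their differences were positive for 93.1%, against 62.7%, with a median of 0.20, against 0.10. The largest rise was 1.51-fold.

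These calls rest on few arrays. Without PBS replicate 1 or PBS replicate 2 the number that rose was 7 (5.67% and 5.53% of all genes rose then), and without pIC replicate 1 or pIC replicate 2 it was 0 (2.51% and 1.77% of all genes), since 1 pIC array then remains and is assumed to vary like the other groups. The median stayed between 0.15 and 0.20 whichever array was left out. After a further cyclic loess scaling, 8 genes rose, the median was 0.10 and 55 of 79 differences were positive. With that scaling the balance over all genes moved as well, from 1984 higher and 1276 lower to 1449 higher and 1521 lower.

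**Figure D1:**
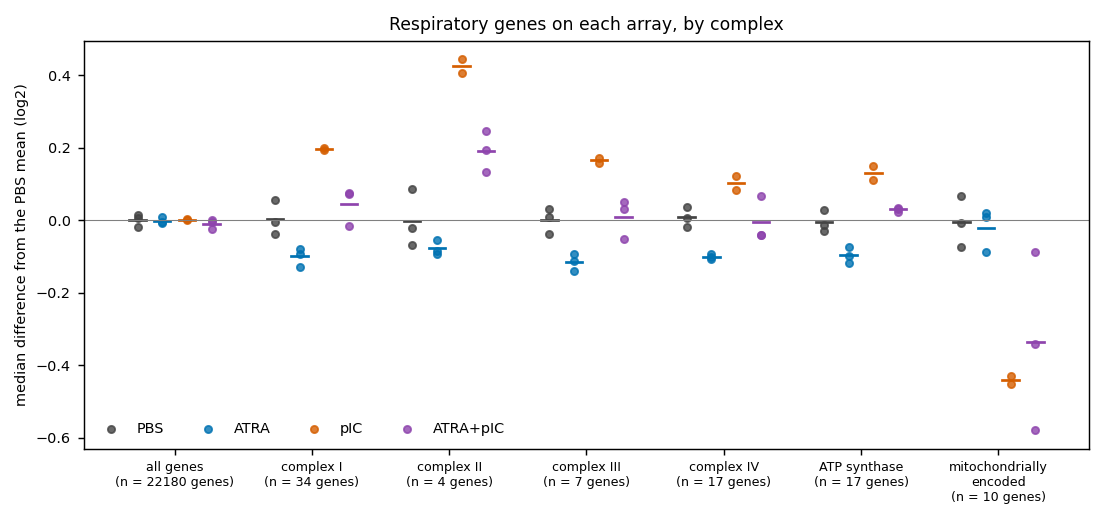
Median difference from the PBS mean on each array (log2, vertical axis) for all genes, each complex and the mitochondrially encoded subunits; points are arrays and bars are group means. The pIC arrays lie above all PBS arrays for each of the 5 complexes (0.41 and 0.44 for complex II) and below them for the mitochondrially encoded genes (-0.45 and -0.43).

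Complex II, succinate dehydrogenase, is also an enzyme of the citrate cycle and has no mitochondrially encoded subunit. Its median difference between pIC and PBS was 0.44, the highest of the 5 complexes. Of its 4 genes 2 rose, where 8.94% of all genes and 21.7% of the brightest 25% of genes did. Sdhb, the iron-sulfur subunit, read 9.65, 9.66 and 9.74 on the PBS arrays and 10.18 and 10.18 on the pIC arrays. Both pIC arrays were above all PBS arrays, and the change was 0.50 ± 0.11 (SE), 1.41-fold, with an adjusted p of 0.0133. Sdhd, a membrane anchor that helps bind ubiquinone, read 8.92, 9.0 and 9.16 with PBS and 9.65 and 9.48 with pIC. It rose by 0.54 ± 0.13 (SE; limma adjusted p = 0.0195), again without overlap.

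Sdhc, the other membrane anchor, read 7.23, 7.44 and 7.51 with PBS and 7.79 and 7.76 with pIC. Its groups did not overlap, but the difference of 0.38 ± 0.12 (SE) missed the threshold (limma adjusted p = 0.0523). Sdha, the flavoprotein that oxidises succinate, read 11.02, 11.01 and 11.07 with PBS and 11.15 and 11.05 with pIC. Its groups overlapped and the difference was 0.06 ± 0.09 (SE; limma adjusted p = 0.734), with a sign that turned (-0.04) after cyclic loess scaling. Within this complex, the iron-sulfur subunit and 1 anchor passed the test and the catalytic flavoprotein did not.

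Complex I, the largest complex of the chain, had a positive difference for 33 of its 34 genes (median 0.21), and 5 rose while none fell. The rises are 14.7% of its genes, against 8.94% of all genes and 21.7% of the brightest 25% of genes. The 6 core subunits measured here, among them those with the flavin and iron-sulfur centres, had a median of 0.24 with 1 call. The 27 accessory subunits had a median of 0.19 with 4 calls. Ndufs8, a core subunit with iron-sulfur clusters close to the ubiquinone site, read 9.0, 9.04 and 9.18 with PBS and 9.59 and 9.55 with pIC, and rose by 0.50 ± 0.11 (SE), 1.41-fold, with a limma adjusted p of 0.0128. Ndufa9, an accessory subunit of the arm that faces the matrix, read 10.90, 10.91 and 10.94 with PBS and 11.31 and 11.27 with pIC, a rise of 0.37 ± 0.08 (SE; limma adjusted p = 0.0154). Neither gene overlapped between groups.

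Ndufb7, an accessory subunit of the membrane arm, read 10.03, 10.06 and 10.13 with PBS and 10.47 and 10.29 with pIC. It rose by 0.31 ± 0.08 (SE; limma adjusted p = 0.0295), and its upstream stretch above holds an ETS match near the start site. Ndufab1, the mitochondrial acyl carrier protein, which also serves fatty acid and lipoate synthesis, showed the largest difference of the 79 genes. It read 6.72, 7.25 and 7.33 with PBS and 7.68 and 7.71 with pIC, a rise of 0.60 ± 0.16 (SE; limma adjusted p = 0.0321), and PBS replicate 1 was low among its controls. Ndufa8 rose by 0.28 ± 0.08 (SE; limma adjusted p = 0.0465), a call that ended under 12 of the 18 alternatives.

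Several complex I genes lay just outside the threshold. Ndufa1, Ndufs4 and Ndufv2, of which Ndufv2 is a core subunit of the NADH-oxidising module, differed by 0.35, 0.28 and 0.25, with limma adjusted p-values of 0.0523, 0.0525 and 0.0575. Across complex I the pIC arrays lay above all PBS arrays for 24 of 34 genes (70.6%, against 23.4% of all genes). They lay below them for none (19.6% of all genes). The single negative difference, -0.04, was that of Ndufa4l2, a paralog of Ndufa4 known for induction by hypoxia.

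**Figure D2:**
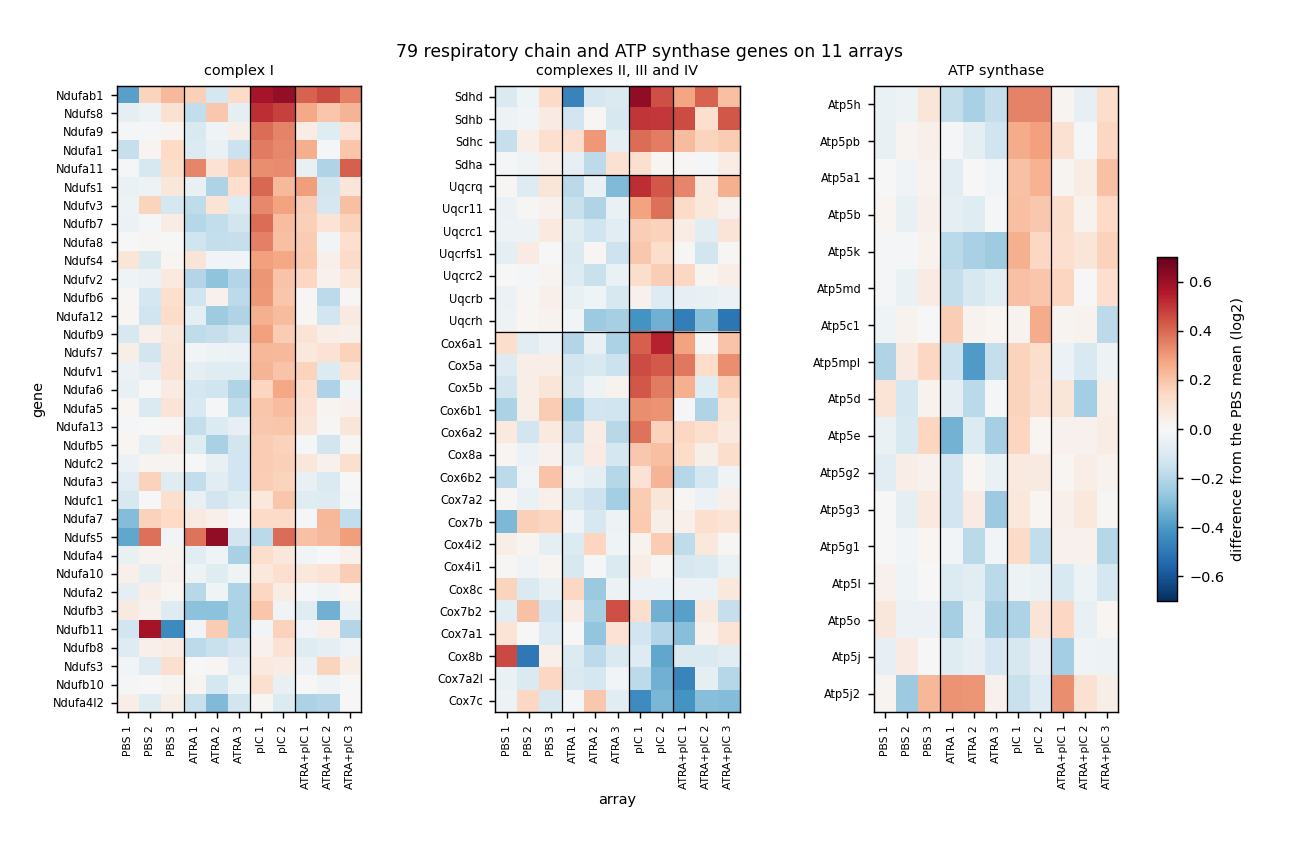
Difference from the PBS mean (log2, colour, limits -0.7 to 0.7) for the 79 genes (rows, ordered within a complex by the pIC minus PBS difference) on the 11 arrays (columns). The pIC columns are red for most rows of complex I, where 33 of 34 differences were positive, and blue at the foot of complexes III and IV, where Uqcrh and Cox7c fell.

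Complex III, the cytochrome bc1 complex, was split: 2 genes rose, 1 fell, and 5 of 7 differences were positive (median 0.16). The rises are 28.6%, against 8.94% of all genes and 21.7% of the brightest 25% of genes. Uqcrq, a small subunit next to cytochrome b, read 9.05, 8.96 and 9.13 with PBS and 9.56 and 9.48 with pIC, and rose by 0.48 ± 0.11 (SE), 1.39-fold, with a limma adjusted p of 0.0159. Uqcr11, another small membrane subunit, read 8.46, 8.51 and 8.53 with PBS and 8.78 and 8.88 with pIC, and rose by 0.33 ± 0.08 (SE; limma adjusted p = 0.0209). Both genes had every pIC array above every PBS array.

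Uqcrh, the hinge protein that helps cytochrome c1 bind cytochrome c, went the other way. It read 8.74, 8.80 and 8.80 with PBS and 8.36 and 8.44 with pIC, and fell by 0.38 ± 0.10 (SE; limma adjusted p = 0.0267). Its annotated pseudogene Uqcrh-ps1, which has a probe set of its own, differed by 0.20 ± 0.11 (SE; limma adjusted p = 0.291). How far the probes of these near-identical copies share signal was not tested. The core protein Uqcrc1 read 11.51, 11.51 and 11.62 with PBS and 11.72 and 11.70 with pIC. Uqcrc1, its partner Uqcrc2 and the Rieske iron-sulfur protein Uqcrfs1 differed by 0.17, 0.15 and 0.16, none past the test, though their groups did not overlap. Uqcrb differed by -0.03.

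In complex IV, cytochrome c oxidase, 3 of 17 genes rose, 1 fell and 11 had a positive difference (median 0.11). The rises are 17.6%, against 8.94% of all genes and 21.7% of the brightest 25% of genes. Cox5a, a subunit on the matrix side, had the smallest adjusted p of the 79 genes. It read 10.28, 10.42 and 10.42 with PBS and 10.83 and 10.80 with pIC, and rose by 0.44 ± 0.09 (SE; limma adjusted p = 0.0107). Cox6a1 read 11.28, 11.08 and 11.11 with PBS and 11.58 and 11.69 with pIC, and rose by 0.48 ± 0.11 (SE; limma adjusted p = 0.0148). Cox5b, a zinc-binding subunit, read 10.86, 11.04 and 11.08 with PBS and 11.43 and 11.36 with pIC, and rose by 0.40 ± 0.11 (SE; limma adjusted p = 0.0367).

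Cox7c, a small membrane subunit, read 8.17, 8.35 and 8.10 with PBS and 7.77 and 7.89 with pIC. All pIC values lay below all PBS values, and it fell by 0.38 ± 0.11 (SE; limma adjusted p = 0.0378). The fall no longer passed without PBS replicate 1, PBS replicate 2, ATRA replicate 1, ATRA+pIC replicate 3 or either pIC array.

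**Figure D3:**
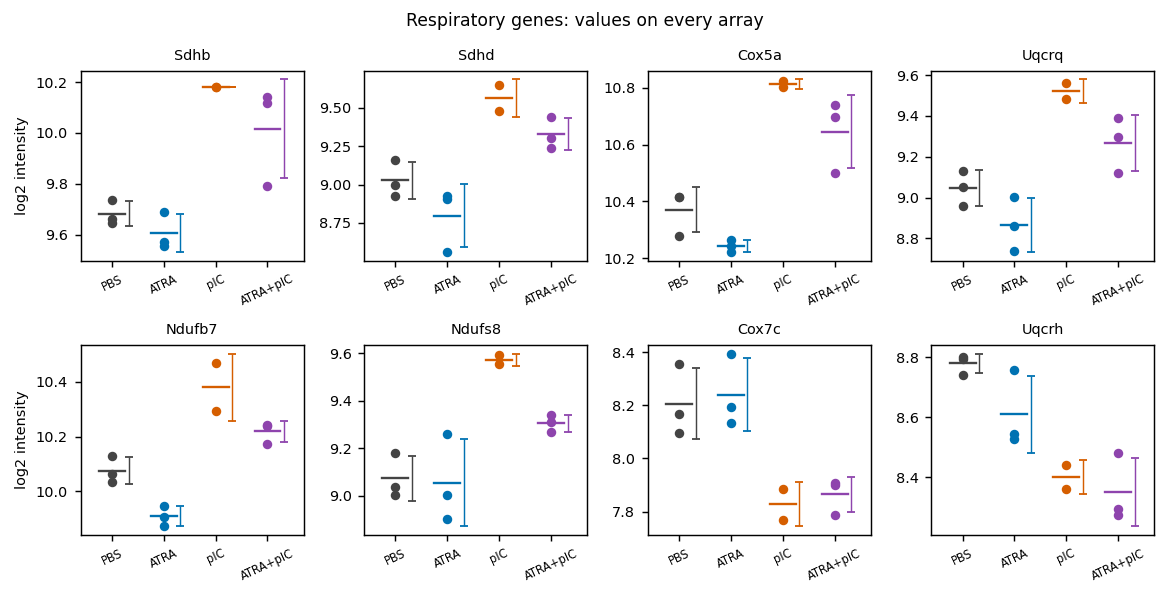
Log2 intensity (vertical axes, each gene on its own scale) on every array for 8 respiratory genes; points are arrays, bars are group means and error bars are SDs. Sdhb reads 10.18 on both pIC arrays against 9.65 to 9.74 with PBS, and Cox7c reads 7.77 and 7.89 against 8.10 to 8.35.

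Several complex IV subunits have isoforms whose expression is restricted to certain tissues. The 8 such genes counted here were Cox4i2, Cox6a2, Cox6b2, Cox7a1, Cox7b2, Cox8b, Cox8c and Ndufa4l2. Their median difference between pIC and PBS was -0.04, with none called, while the other 71 genes had a median of 0.17. The 2 sets differ in brightness. Apart from Cox6b2, these isoforms ranked at percentiles 3.92 (Cox7b2) to 53.2 (Cox6a2) of all genes by mean intensity. Most of the other 71 genes lay in the brightest 25%. Cox6b2, at percentile 84.3, differed by 0.17. The part of brightness in this contrast was not tested. Cox4i1, the general isoform of the largest nuclear subunit, read 11.81, 11.78 and 11.82 with PBS, 11.69, 11.79 and 11.70 with ATRA, 11.86 and 11.81 with pIC, and 11.69, 11.70 and 11.76 with ATRA+pIC. Its pIC and PBS arrays overlapped, and its ATRA+pIC arrays lay below both. Cox4i2, the lung-type isoform, read 6.36, 6.33 and 6.25 with PBS, 6.22, 6.46 and 6.29 with ATRA, 6.34 and 6.49 with pIC, and 6.14, 6.39 and 6.32 with ATRA+pIC. Neither isoform differed beyond 0.10 between pIC and PBS.

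Cox6a2, the heart and muscle isoform of Cox6a1, read 6.83, 6.63 and 6.83 with PBS and 7.14 and 6.93 with pIC. Its difference of 0.27 was without overlap, but missed the threshold (limma adjusted p = 0.125). Cox6b1 read 9.52, 9.78 and 9.92 with PBS and 10.06 and 10.05 with pIC, a difference of 0.32 (limma adjusted p = 0.115), and its testis isoform Cox6b2 read 8.99, 9.16 and 9.37 with PBS and 9.28 and 9.41 with pIC, with overlap.

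Cox7a2 read 11.98, 11.93 and 12.02 with PBS and 12.16 and 12.06 with pIC, while its heart and muscle isoform Cox7a1 read 6.66, 6.55 and 6.47 with PBS and 6.43 and 6.35 with pIC. Cox7a2l, a relative that takes part in joining complexes III and IV into supercomplexes, read 8.78, 8.73 and 8.98 with PBS and 8.64 and 8.49 with pIC. The differences were 0.13, -0.17 and -0.26, none past the test, and in all 3 genes the pIC and PBS arrays did not overlap.

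Cox8a read 11.08, 11.02 and 11.09 with PBS and 11.25 and 11.27 with pIC, a difference of 0.20 (limma adjusted p = 0.137) without overlap. Its isoforms Cox8b and Cox8c were low, at 4.93 to 5.89 and 4.30 to 4.56 with PBS, and overlapped. Ndufa4, grouped by its symbol with complex I although it is now placed in complex IV, read 11.30, 11.38 and 11.38 with PBS and 11.47 and 11.43 with pIC, and Ndufa4l2 read 5.29, 5.16 and 5.28 with PBS and 5.25 and 5.15 with pIC. No gene of these isoform sets other than Cox6a1 passed the test between pIC and PBS.

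ATP synthase makes ATP in its F1 head, which is driven by the Fo rotor in the membrane and held by a peripheral stalk. Of its 17 genes 2 rose, none fell, and 12 had a positive difference (median 0.13). The rises are 11.8%, near the 8.94% of all genes and below the 21.7% of the brightest 25% of genes. Both that rose belong to the stalk. Atp5h read 10.85, 10.86 and 10.98 with PBS and 11.25 and 11.25 with pIC, and rose by 0.35 ± 0.08 (SE; limma adjusted p = 0.0197). That call was lost under 6 of the 18 alternatives, cyclic loess and the mean of probe sets among them. Atp5pb read 10.74, 10.82 and 10.84 with PBS and 11.06 and 11.08 with pIC, and rose by 0.27 ± 0.08 (SE; limma adjusted p = 0.0474), a call that ended under 13 of the 18 alternatives. All pIC values of both genes were above all PBS values.

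The 5 F1 genes all had positive differences (0.08 to 0.23, median 0.14) and none was called. Atp5a1, the α subunit, read 12.18, 12.15 and 12.19 with PBS and 12.38 and 12.42 with pIC, a difference of 0.23 (limma adjusted p = 0.0912). Atp5b, the catalytic β subunit, read 12.78, 12.72 and 12.80 with PBS and 12.98 and 12.95 with pIC, a difference of 0.20 (limma adjusted p = 0.11). In each the groups were separate.

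The 3 genes Atp5g1, Atp5g2 and Atp5g3 encode the same mature c subunit of the rotor ring from separate loci. Atp5g1 read 7.76, 7.74 and 7.77 with PBS and 7.89 and 7.58 with pIC, Atp5g2 10.80, 10.92 and 10.90 with PBS and 10.94 and 10.94 with pIC, and Atp5g3 9.38, 9.32 and 9.45 with PBS and 9.45 and 9.39 with pIC. Their differences were -0.02, 0.07 and 0.04, and none passed the test.

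The subunits encoded by mitochondrial DNA, which are not among the 79 genes, were lower after pIC. Of 13 such genes, 10 were measured (ND1 to ND6, ND4L, CYTB, COX1 and COX3). Of these 4 fell, where 5.75% of all genes and 9.29% of the brightest 25% of genes fell. The difference was negative for 9, and the median was -0.45. CYTB, the cytochrome b of complex III, read 12.92, 12.89 and 12.96 with PBS and 12.27 and 12.30 with pIC, and fell by 0.64 ± 0.15 (SE; limma adjusted p = 0.0201). ND5, a proton-pumping subunit of complex I, read 12.66, 12.75 and 12.67 with PBS and 12.01 and 12.09 with pIC, and fell by 0.64 ± 0.15 (SE; limma adjusted p = 0.0191). ND4, another pumping subunit, read 13.15, 13.13 and 13.09 with PBS and 12.59 and 12.67 with pIC, and fell by 0.49 ± 0.11 (SE; limma adjusted p = 0.0146).

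COX3, a core subunit of complex IV, read 12.42, 12.57 and 12.51 with PBS and 12.09 and 12.10 with pIC, and fell by 0.41 ± 0.11 (SE; limma adjusted p = 0.0287). In 9 of the 10 genes both pIC arrays lay below all PBS arrays, where 19.6% of all genes did so. The exception was ND6, the gene that is read from the other DNA strand, which read 9.44, 9.71 and 9.58 with PBS and 9.69 and 9.51 with pIC, a difference of 0.03 ± 0.11 (SE). The median stayed between -0.46 and -0.39 whichever array was left out and was -0.52 with cyclic loess, but no gene passed without pIC replicate 1 or pIC replicate 2. The number that fell was 2 without PBS replicate 2 or PBS replicate 3 (3.3% and 4.37% of all genes fell then). It was 7 without ATRA+pIC replicate 2 (7.52% of all genes).

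**Figure D4:**
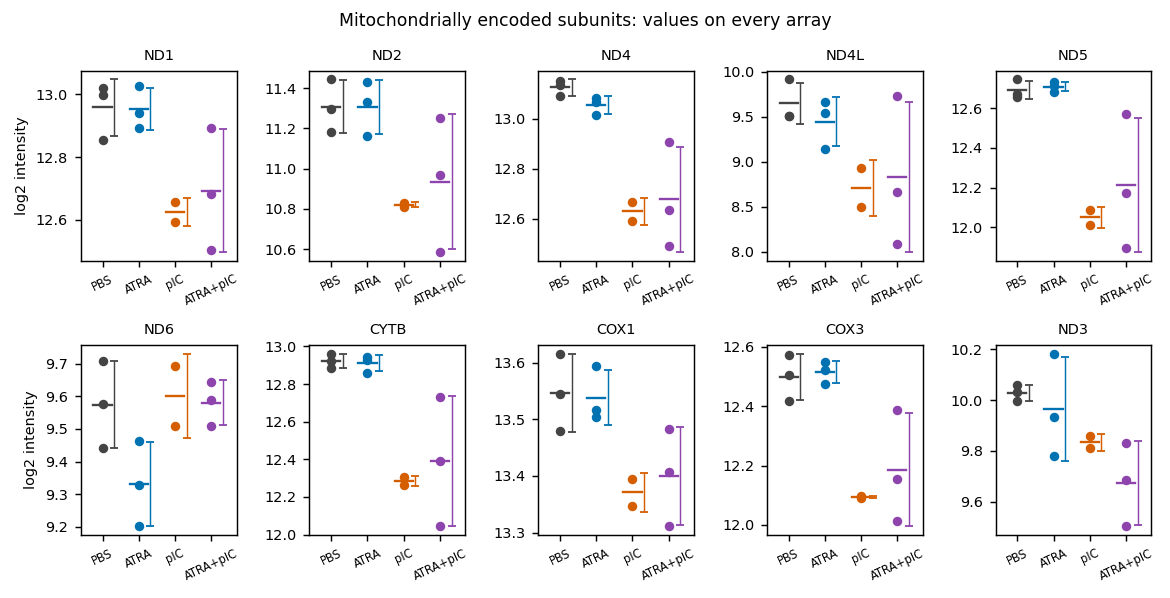
Log2 intensity (vertical axes, each gene on its own scale) on every array for the 10 mitochondrially encoded subunits; points are arrays, bars are group means and error bars are SDs. The pIC arrays lie below the PBS arrays in each panel except ND6, and ATRA+pIC replicate 2 is the highest ATRA+pIC array in 8 panels, for example 12.73 for CYTB.

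Assembly factors build the complexes and insert their cofactors. Of 52 listed, 49 were measured, and 14 rose and none fell between pIC and PBS, with a median of 0.28. The rises are 28.6%, against 8.94% of all genes and 21.7% of the brightest 25% of genes. Uqcc2, needed for complex III, read 8.86, 8.64 and 8.79 with PBS and 9.40 and 9.34 with pIC, a rise of 0.61 ± 0.09 (SE; limma adjusted p = 0.00354). Ecsit, a complex I factor also known from innate immune signalling, rose by 0.73 ± 0.14 (SE; limma adjusted p = 0.00756), Coa3, for complex IV, by 0.67 (limma adjusted p = 0.0068) and Atpaf2, for the F1 head, by 0.48 (limma adjusted p = 0.00746). Without pIC replicate 1 or pIC replicate 2 the count was 4 or 2, and over all arrays left out in turn the median ran from 0.22 to 0.32.

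Among 12 measured genes listed for electron carriers and inputs (Atpif1, an inhibitor of ATP synthase, among them), 2 rose (16.7%) and 1 fell. Of all genes 8.94% rose and 5.75% fell, and of the brightest 25% of genes 21.7% rose and 9.29% fell. Cycs, cytochrome c itself, read 11.55, 11.60 and 11.74 with PBS and 12.20 and 12.22 with pIC, a rise of 0.58 ± 0.09 (SE; limma adjusted p = 0.00421). Cyc1, the cytochrome c1 of complex III, which the symbol rule does not reach, read 10.58, 10.39 and 10.55 with PBS and 11.07 and 11.16 with pIC, a rise of 0.61 ± 0.11 (SE; limma adjusted p = 0.00624). Sqor, which feeds electrons from sulfide into ubiquinone, read 7.79, 8.16 and 8.0 with PBS and 6.86 and 6.97 with pIC, and fell by 1.07 ± 0.18 (SE; limma adjusted p = 0.0049). None of the 3 overlapped between groups.

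Of 12 measured genes of ubiquinone synthesis, 2 rose (16.7%) and 1 fell. Of all genes 8.94% rose and 5.75% fell, and of the brightest 25% of genes 21.7% rose and 9.29% fell. Coq8a, an atypical kinase needed for the pathway, read 8.78, 8.89 and 8.62 with PBS and 7.95 and 7.93 with pIC, and fell by 0.82 ± 0.11 (SE; limma adjusted p = 0.00201). Coq6, a ring hydroxylase, and Coq10b, a ubiquinone-binding chaperone, rose by 0.52 and 0.39, and the rises numbered 1 without PBS replicate 2 or pIC replicate 2 and 3 without PBS replicate 1. Of 22 measured regulators and factors of mitochondrial DNA expression, 1 rose (4.55%, below the 8.94% of all genes) and 2 fell. Ppargc1a, the coactivator PGC-1α, read 5.84, 5.99 and 5.56 with PBS and 5.24 and 4.69 with pIC. It fell by 0.83 ± 0.22 (SE; limma adjusted p = 0.0276). All of these values lay below 6.64, the highest array median over genes, so this is the fall of a dim probe set. Whether Ppargc1a is expressed in these cells was not tested. Its relative Pprc1 read 9.49, 9.15 and 9.33 with PBS and 9.90 and 9.83 with pIC, and rose by 0.54 ± 0.11 (SE; limma adjusted p = 0.0107). Polg2, a subunit of the mitochondrial DNA polymerase, fell by 0.46. Without pIC replicate 1 this list had 0 rises and 1 fall, and without pIC replicate 2 it had none of either. Without PBS replicate 2 it had 1 rise and 0 falls, and without any other array except ATRA+pIC replicate 2 it had 1 of each.

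When pIC was given after ATRA, the comparison with ATRA alone, which shares no array with the comparison above, again gave mostly positive differences. Here 7 respiratory genes rose (3.5% of all genes did) and 1 fell (3.71% of all genes did, 7.21% in either direction). The difference was positive for 65 of 79 genes with a median of 0.12, where the median of all genes was 0.00. All ATRA+pIC arrays lay above all ATRA arrays for 34 genes (43.0%, against 11.7% of all genes) and below them for 2 (2.53%, against 12.4%). In the brightest 25% of genes, 7 of 58 respiratory genes rose (12.1%, against 9.47% of genes that bright), and 91.4% of differences were positive, against 56.3%, with a median of 0.15, against 0.04. By complex the medians were 0.13 for complex I, 0.24 for II, 0.12 for III, 0.05 for IV and 0.15 for ATP synthase.

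The ATRA+pIC arrays bear unequally on this count. Without ATRA+pIC replicate 2, the array that stood apart, 11 genes rose (6.98% of all genes did) and 2 fell, and the median was 0.15. The number that rose was 1 without ATRA replicate 1, ATRA replicate 3 or ATRA+pIC replicate 1, 3 without ATRA replicate 2, and 0 without ATRA+pIC replicate 3, while 1.04% to 1.68% of all genes rose. A fit of the 6 arrays compared, without the other groups, called none, where 0.663% of all genes rose.

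Sdhd read 8.56, 8.91 and 8.93 with ATRA and 9.30, 9.44 and 9.24 with ATRA+pIC, and rose by 0.53 ± 0.11 (SE; limma adjusted p = 0.0224). Sdhb read 9.56, 9.69 and 9.57 with ATRA and 10.14, 9.79 and 10.12 with ATRA+pIC, and rose by 0.41 ± 0.10 (SE; limma adjusted p = 0.03), replicate 2 being the lowest. Cox5a read 10.24, 10.26 and 10.22 with ATRA and 10.74, 10.50 and 10.70 with ATRA+pIC, a rise of 0.40 ± 0.08 (SE; limma adjusted p = 0.0168). These 3 genes, an anchor, an iron-sulfur subunit and a cytochrome oxidase subunit, had no overlap between groups.

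Atp5k, subunit e at the base of the rotor ring, which takes part in pairing of the synthase, had the smallest adjusted p in this comparison. It read 9.13, 9.09 and 9.07 with ATRA and 9.43, 9.40 and 9.48 with ATRA+pIC, a rise of 0.34 ± 0.07 (SE; limma adjusted p = 0.0141), and with pIC alone its difference from PBS was 0.20 (limma adjusted p = 0.101). Ndufv2 read 10.69, 10.61 and 10.69 with ATRA and 11.04, 10.92 and 10.97 with ATRA+pIC, a rise of 0.32 ± 0.07 (SE; limma adjusted p = 0.0259). Atp5h, which rose with pIC alone, read 10.74, 10.67 and 10.74 with ATRA and 10.92, 10.84 and 11.03 with ATRA+pIC, a difference of 0.21 (limma adjusted p = 0.116). Atp5md, a small membrane subunit, read 12.64, 12.69 and 12.72 with ATRA and 12.96, 12.80 and 12.92 with ATRA+pIC, a difference of 0.21 (limma adjusted p = 0.107). In all 4 genes the groups were separate.

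Ndufb7 read 9.88, 9.91 and 9.95 with ATRA and 10.24, 10.17 and 10.24 with ATRA+pIC, a rise of 0.31 ± 0.07 (SE; limma adjusted p = 0.0295). Uqcrq read 8.86, 9.0 and 8.74 with ATRA and 9.39, 9.12 and 9.30 with ATRA+pIC, a rise of 0.40 ± 0.10 (SE; limma adjusted p = 0.0316). Cox7c read 8.19, 8.40 and 8.13 with ATRA and 7.79, 7.91 and 7.90 with ATRA+pIC, a fall of 0.37 ± 0.10 (SE; limma adjusted p = 0.0406) that no longer passed without PBS replicate 1, any ATRA array, either pIC array, ATRA+pIC replicate 1 or ATRA+pIC replicate 3. Uqcr11 read 8.34, 8.29 and 8.45 with ATRA and 8.63, 8.57 and 8.53 with ATRA+pIC, a difference of 0.22 (limma adjusted p = 0.102) without overlap. Uqcrh read 8.76, 8.53 and 8.55 with ATRA and 8.30, 8.48 and 8.27 with ATRA+pIC, and its difference of -0.26 did not pass (limma adjusted p = 0.105). In the isoform sets and among the tissue-restricted isoforms no gene passed, with differences from -0.25 for Cox7b2 to 0.32 for Cox6a1.

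The 6 genes called in both comparisons with pIC are 37.5% of the 16 called against PBS and 75% of the 8 called against ATRA. The same shares over all called genes were not counted, so these are not a result about the respiratory genes. Across the 79 genes, the pIC difference without ATRA and that with ATRA had a Pearson correlation of 0.74 and a Spearman correlation of 0.66, against 0.81 and 0.61 across all 22180 genes. These are descriptions across genes, which are not independent replicates and share the arrays of each comparison and 1 normalisation. The sign was the same for 63 of 79 genes (79.7%, against 68.8% of all genes), with 57 positive and 6 negative in both, and after cyclic loess for 70.9%, against 69.2%.

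**Figure D5:**
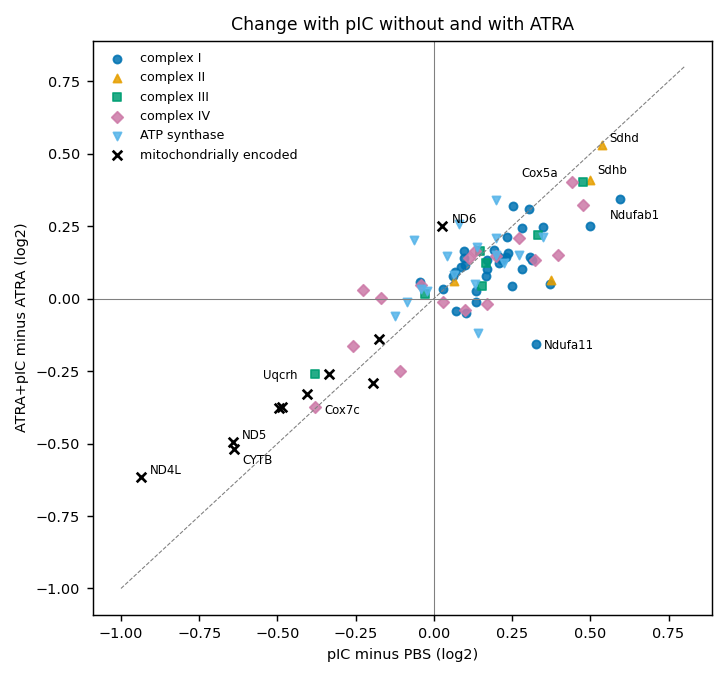
Difference between pIC and PBS (horizontal axis, log2) and between ATRA+pIC and ATRA (vertical axis, log2) for the 79 genes by complex and for the 10 mitochondrially encoded genes (crosses); the dashed line marks equal values. Of the 79 genes, 57 are positive on both axes, with Sdhd at 0.54 and 0.53, while 9 of the 10 crosses are negative on both.

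The mitochondrially encoded genes were also lower with ATRA+pIC than with ATRA, with a median of -0.35 and 9 of 10 negative. Of these genes 2 fell, where 3.71% of all genes and 5.72% of the brightest 25% of genes did. CYTB read 12.94, 12.93 and 12.86 with ATRA and 12.04, 12.73 and 12.39 with ATRA+pIC, a fall of 0.52 ± 0.14 (SE; limma adjusted p = 0.046). ND4 read 13.08, 13.07 and 13.01 with ATRA and 12.49, 12.91 and 12.64 with ATRA+pIC, a fall of 0.38 ± 0.10 (SE; limma adjusted p = 0.0433). Replicate 2 was again the array nearest to the ATRA group. Without it 7 genes fell (7.51% of all genes did then) and the median was -0.46. Without any 1 of the other 10 arrays no gene passed, and the median was -0.22 without ATRA+pIC replicate 1.

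Of the assembly factors 4 rose after ATRA (Cox18, Uqcc2, Ecsit and Coa6, by 0.76, 0.57, 0.54 and 0.37), with a list median of 0.13. That is 8.16%, against 3.5% of all genes and 9.47% of the brightest 25% of genes. The count was 11 without ATRA+pIC replicate 2 (6.98% of all genes rose then). It was 2 without ATRA replicate 1, ATRA+pIC replicate 1 or ATRA+pIC replicate 3. On the list of 12 for carriers and inputs, 4 rose (Cyc1, Cycs, Etfb and Atpif1) and Sqor fell. Atpif1, though listed there, is an inhibitor of ATP synthase and not a carrier or input. The rises are 33.3%, against 3.5% of all genes and 9.47% of the brightest 25% of genes. None of the 5 genes passed without ATRA replicate 1, ATRA+pIC replicate 1 or ATRA+pIC replicate 3, and 1 passed without ATRA replicate 3. Coq8a fell by 0.72 among the ubiquinone genes. Ppargc1a fell by 1.0 ± 0.19 (SE; limma adjusted p = 0.0147) among the regulators, from 6.57, 6.38 and 6.38 with ATRA to 5.09, 5.83 and 5.42 with ATRA+pIC. That call was lost without ATRA replicate 1, ATRA+pIC replicate 1 or ATRA+pIC replicate 3. Its values here were again all below 6.64, the highest array median over genes, so the probe set was dim. Cell type markers moved here too: 2 of 9 erythroid markers rose (median 0.71), 1 of 13 T and NK markers rose (median 0.92), 3 of 7 megakaryocyte markers rose (Itga2b, Treml1 and Itgb3; median 0.38), 2 of 10 monocyte and macrophage markers rose (median 0.04), 1 of 11 neutrophil markers fell (Prtn3; median -0.18) and 4 of 11 HSC markers fell (median -0.38).

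ATRA alone gave small negative differences from PBS, none of which passed the test (0 of 79, where 0.00451% of all genes rose and 0.0% fell). The difference was negative for 68 of the 79 genes with a median of -0.09, and 50.6% of all genes had a negative difference. All ATRA arrays lay below all PBS arrays for 21 genes (26.6%, against 6.08% of all genes) and above them for 0 (6.61% of all genes). At an unadjusted limma p under 0.05 there were 9 genes (11.4%, against 6.8% of all genes). The negative sign held in all 5 complexes, with medians from -0.10 to -0.06, and 68 differences were again negative after cyclic loess. ATRA replicate 1 stood apart in neutrophil markers, whose median was 0.84 above the PBS mean there and 0.01 and 0.07 above it on the other ATRA arrays (Elane read 10.08 against 6.48 and 6.48). Without that array 66 of the 79 differences were negative, with a median of -0.09. Megakaryocyte marker medians were -0.45, -0.34 and -0.11 on the ATRA arrays, with none called (lowest limma adjusted p = 0.0534), and erythroid ones -0.38 to -0.23. The part of these markers was not tested.

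The differences nearest to the threshold were those of Atp5k, Ndufv2 and Ndufb3. Atp5k read 9.30, 9.31 and 9.34 with PBS against 9.13, 9.09 and 9.07 with ATRA, a difference of -0.22 ± 0.07 (SE; limma adjusted p = 0.505). Ndufv2 read 10.86, 10.85 and 10.96 with PBS against 10.69, 10.61 and 10.69 with ATRA, a difference of -0.23 ± 0.07 (SE; limma adjusted p = 0.549). Ndufb3, an accessory subunit of the membrane arm, differed by -0.27 ± 0.10 (SE; limma adjusted p = 0.638). These groups did not overlap. The mitochondrially encoded genes had a median of -0.01 between ATRA and PBS, with 0 called.

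ATRA+pIC compared with pIC, on arrays not used for ATRA against PBS, also gave mostly negative differences. None of the 79 genes passed (0.0% of all genes did in either direction). Of their differences 70 were negative, with a median of -0.13, where 55.3% of all genes were negative with a median of -0.02. In the brightest 25% of genes, 96.6% of respiratory differences were negative, against 65.9% of genes that bright. The medians there were -0.16, against -0.07. All ATRA+pIC arrays lay below both pIC arrays for 49 of the 79 genes (62.0%, against 17.4% of all genes) and above them for 1 (1.27%, against 9.74%). At an unadjusted limma p under 0.05 there were 19 genes (24.1%, against 10.1% of all genes). After cyclic loess the median was -0.10 and 59 differences were negative. No cell type marker was called here. All 9 erythroid differences were negative (median -0.80), with the ATRA+pIC arrays below both pIC arrays for 6 (66.7%). Of 11 HSC markers 8 had a positive difference (median 0.21). Medians were 0.12 for monocyte and macrophage, 0.18 for neutrophil, 0.01 for T and NK, 0.02 for megakaryocyte and -0.09 for B cell markers. The part of these markers was not tested here.

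Ndufa9 read 11.31 and 11.27 with pIC and 10.97, 10.83 and 11.02 with ATRA+pIC, a difference of -0.35 ± 0.08 (SE; limma adjusted p = 0.259). Atp5h read 11.25 and 11.25 with pIC and 10.92, 10.84 and 11.03 with ATRA+pIC, a difference of -0.32 ± 0.08 (SE; limma adjusted p = 0.279). Neither overlapped. Across the 79 genes, 62 differences were negative both for ATRA against PBS and for ATRA+pIC against pIC, and 51 after cyclic loess. The sign was the same in both for 82.3%, against 54.9% of all genes, and after cyclic loess for 68.4%, against 55.6%. The Pearson correlation of the differences was 0.32 and the Spearman correlation 0.24, against 0.21 and 0.15 across all genes.

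Whether the pIC difference itself changed with ATRA was tested by the interaction, and no respiratory gene passed (0.0% of all genes did). The median interaction over the 79 genes was -0.04, where that of all genes was -0.02, and it was -0.01 without ATRA+pIC replicate 2 and after cyclic loess. At an unadjusted limma p under 0.05 there were 2 genes, Ndufa9 at -0.32 ± 0.11 (SE; adjusted p = 0.775) and Ndufa11 at -0.48 ± 0.22 (SE; adjusted p = 0.794), 2.53% of the genes against 6.27% of all genes.

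Seen over the 4 groups, the median deviation of the 79 genes from their PBS means was -0.03, -0.01 and 0.04 for the PBS arrays themselves and -0.09, -0.08 and -0.11 for those with ATRA. With pIC it was 0.18 and 0.17, and with ATRA+pIC 0.03, 0.00 and 0.05. The pIC arrays were highest, the ATRA arrays lowest, and the ATRA+pIC arrays overlapped with PBS. Complex II departed from this: its ATRA+pIC arrays, at 0.25, 0.13 and 0.19, stayed above its PBS arrays, at -0.07 to 0.09.

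For 9 of the 79 genes a further probe set was measured. Between pIC and PBS all 9 further probe sets had a positive difference, as did those used. Between ATRA+pIC and ATRA the further probe sets of Atp5d, Atp5h, Cox7b and Ndufa8 had negative differences (-0.09, -0.13, -0.61 and -0.16) where those used were positive.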

How the data were processed

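The deposited values, log2 intensities with 1 column per array, were used as the authors deposited them. The submitters' processing notes name oligo 1.36.1, RMA and limma 3.28.20, without order or role. Per the labels' protocols, the RNA (PicoPure kit, with a DNase step) was biotin-labelled by in vitro transcription. No array batch is given in the sources used here, and the number of arrays limits the precision.

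The platform's annotation table gives 1 symbol to 23521 of 41345 probe sets, several to 1814 (not used), and does not list 16010. All 79 genes matched RefSeq. The genes, lists and tests were chosen with earlier results of these data known. Mitochondrially encoded genes were listed with an mt- prefix that matched no symbol, and were then taken by the table's own symbols (ND1 and so on).

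In R 4.3.3, limma 3.58.1 fitted 4 group means to 11 arrays (7 residual degrees of freedom, 10.72 with the prior), with two-sided tests. The script was tested on simulated data. Values on every array are given for the 4 genes per complex with the smallest adjusted p in pIC against PBS, the 2 in ATRA+pIC against ATRA, fixed isoform sets, and up to 4 genes per other list; some of these are given in part. Alternatives were array weights, a filter on dim genes, cyclic loess, the mean of probe sets, a fit of only the groups compared, a trend and robust prior, the replicate number as a block, and each array left out. For the lists other than the 79 genes they were added after the values were seen, as was the comparison with the brightest 25% of genes by mean intensity. Promoters were searched and figures drawn in Python (version 3.11.15; matplotlib 3.10.9, pandas 2.3.3, numpy 2.4.6).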

Additional observations from a re-analysis of the deposited data

How the results depend on the processing

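For pIC against PBS, the number of genes that rose (14) became 8 with cyclic loess (6.53% of all genes rose then) and 24 with a trend and robust prior (9.94%), the number that fell (2) became 1 in a fit of only the groups compared, and the median (0.17) became 0.10 with cyclic loess. Sdha turned to -0.035 with cyclic loess (limma adjusted p = 0.857). Leaving out 1 array gave 0 to 16 rises, 0 to 2 falls and medians of 0.15 to 0.20. The falls were 0 without PBS replicate 1, PBS replicate 2 or either pIC array, and 1 without PBS replicate 3, ATRA replicate 1 or ATRA+pIC replicate 3. Cox5a, Cox6a1, Ndufa9, Ndufs8 and Sdhb passed under 16 of 18 alternatives. Calls were lost under 3 of 18 for Ndufab1 and Uqcrq, 4 for Sdhd and Uqcr11 and 5 for Uqcrh. They were lost under 6 for Atp5h and Ndufb7 and 7 for Cox5b and Cox7c.

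For ATRA+pIC against ATRA, 7 rises became 21 with array weights (10.4% of all genes rose then), 13 with a trend and robust prior (4.4%) and 0 with only the groups compared (0.663%), 1 fall became 2 with array weights and 0 with only the groups compared, and the median became 0.075 with cyclic loess. Leaving out 1 array gave 0 to 11 rises, 0 to 2 falls and medians of 0.10 to 0.15. The fall was lost without PBS replicate 1, any ATRA array, either pIC array, ATRA+pIC replicate 1 or ATRA+pIC replicate 3. Where a group outside the comparison is named, it enters through the shared estimate of the spread.

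For ATRA+pIC against pIC the median was -0.16 without dim genes and -0.10 with cyclic loess, and -0.15 to -0.12 over arrays left out. The interaction median was -0.011 with array weights and -0.006 with cyclic loess, and -0.063 to -0.012 over arrays left out. For ATRA against PBS it was -0.11 to -0.07. The counts of these 3 comparisons were 0 under each alternative. The causes were not tested.

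With the dimmest 40% of genes left out, 18 of 73 genes rose for pIC against PBS (17.7% of 13308 genes) and 9 for ATRA+pIC against ATRA (7.84%).

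The replicate numbers did not pair the arrays: over 15 pairs with the same number, the correlation of deviations ran from -0.109 to 0.0976, and 0 of 11 arrays correlated best with its own number. With the replicate block, 12 genes rose and 2 fell for pIC against PBS, and 5 rose and 1 fell for ATRA+pIC against ATRA. Probe sets near background and groups of 2 or 3 arrays limit what small changes can be called.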
